A study of Schmidtea mediterranea with 60 samples.

Results

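In planarian tails sampled 6 hours post amputation (6hpa), this comparison set animals given dsRNA of opa1 and drp1 against animals given dsRNA of opa1 and egfp. It used 6 of the 60 libraries of the series, which were chosen by their labels for tissue, RNAi pair and time: 3 libraries of opa1;drp1 tails and 3 of opa1;egfp tails. A further 3 libraries of egfp;egfp tails at 6hpa, the control, are given beside them. In the text below, opa1 plus drp1 RNAi stands for the label opa1;drp1, opa1 RNAi in tails for the label opa1;egfp, and control tails for egfp;egfp. The species is Schmidtea mediterranea, a flatworm that rebuilds missing body parts from fragments. All 3 groups received RNAi with a pair of dsRNAs. Both compared groups carried opa1 RNAi, so the difference between them is drp1 in place of egfp, which codes for a jellyfish-derived fluorescent protein. The labels do not say whether a library came from 1 tail or a pool, nor whether replicates were separate animals. The p-values below therefore reflect the variation among libraries alone, which may be technical. For tails that variation was estimated from all 36 tail libraries of the series, and for whole bodies from the 24 whole-body libraries.

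Mitochondria fuse and divide continually. Opa1 is a dynamin-like GTPase that fuses the inner mitochondrial membrane and shapes its cristae, and drp1 is the dynamin-related GTPase that constricts and divides mitochondria, so loss of opa1 leaves division without inner-membrane fusion, while loss of drp1 reduces division. In planarians amputation is followed within hours by a transcriptional wound response and later by division of the stem cells called neoblasts. The series title places the study in mitochondrial dynamics during regeneration, and this comparison addresses what lowering drp1 adds to opa1 RNAi early after the cut. The files used here identify features only by SMED30 identifiers and do not pair them with gene names, so the 2 targeted genes, the markers of cell types in the tail and the genes of any pathway could not be looked up, and no role is given to a feature.

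The 36 tail libraries form 12 groups of 3 over 4 times, of which 0dpa, 1dpa and 2dpa are days post amputation, and the other 24 libraries are whole bodies. Tail values are the authors' scaled values, not whole reads, so the sequencing depth of a tail library is unknown. Their sums per library, in units of 1e6, were 12.4 to 14.02 in opa1 plus drp1 RNAi tails at 6hpa, against 10.2 to 11.6 in opa1 RNAi tails, with 11.9 to 14.5 in control tails. The 6hpa libraries varied more than the others. The mean within-group variance of log2 values was 0.373 in opa1 plus drp1 RNAi, 0.451 in opa1 RNAi and 0.453 in control tails at 6hpa, and 0.160 to 0.299 in the 9 groups at other times. Pearson's r across features was 0.953 to 0.962 between opa1 plus drp1 RNAi libraries, 0.946 to 0.954 between opa1 RNAi libraries and 0.931 to 0.957 between libraries of these 2 groups, and these ranges overlap. Features are not independent replicates in such a correlation.

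Few features passed the test for adding drp1 at 6hpa in the main fit, which weights the libraries by group. A feature is called where its adjusted p is under 0.05 in limma with Benjamini-Hochberg adjustment over the 20681 features tested, and 43 were called, which is 0.208% of those tested. Of these, 24 were higher (0.116%) and 19 were lower (0.0919%) in opa1 plus drp1 RNAi tails. The largest changes of features with at least moderate values were an 11.3-fold fall of SMED30027152 and a 3.35-fold rise of SMED30009757. All 43 had every opa1 plus drp1 RNAi library on one side of every opa1 RNAi library, as had 2250 features in the higher direction (10.9%) and 1588 in the lower (7.68%) whether called or not. A fold over 2 was reached by 11 of the 24 rises (0.0532% of features) and by 13 of the 19 falls (0.0629%). At an unadjusted p under 0.05 there were 2682 features, 13.0% of those tested. No feature stood at 10 or more in all 3 libraries of one group while listed at 0 in all 3 of the other. The count depended on single libraries: it was 15 without opa1 plus drp1 RNAi replicate 3 and 9 without opa1 RNAi replicate 3, and 32 to 53 without any one of the other 4. It depended on the weights too, at 984 with equal weights for all libraries and 237 with 1 weight per library. The split also depended on scaling. With TMM factors there were 18 higher and 22 lower calls, with values rescaled without the largest feature there were 20 and 107, and on the deposited TPM table, whose values are scaled by transcript length and library total, there were 35 and 3001. The median log2 fold change of all features was 0.06 as deposited, 0.04 with TMM factors, -0.05 without the largest feature and -0.26 on TPM.

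**Figure D1:**
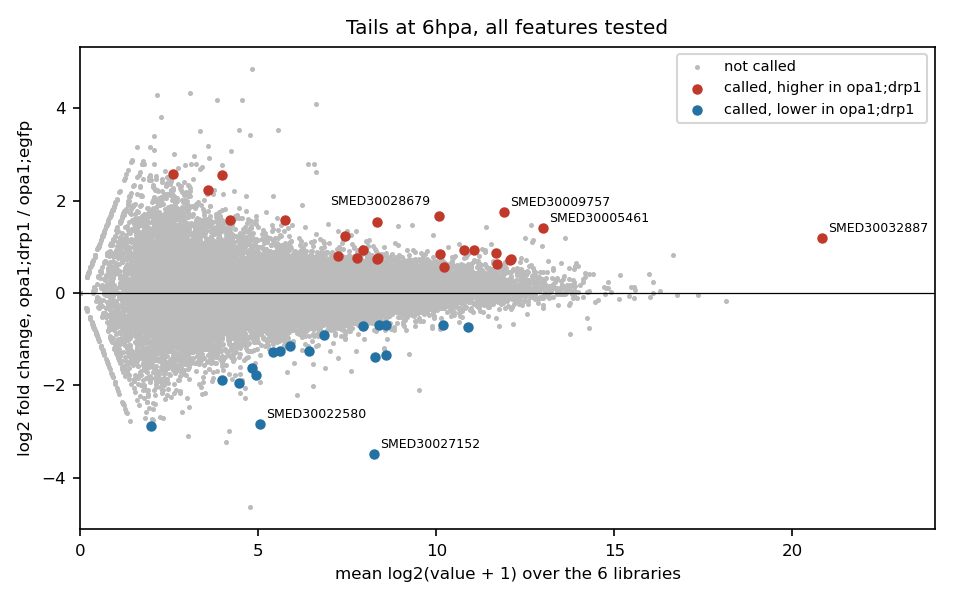
Each point is 1 of the 20681 features tested in tails at 6hpa; the horizontal axis is its mean log2(value + 1) over the 6 libraries and the vertical axis its log2 fold change, opa1;drp1 over opa1;egfp. The 24 features called higher are red and the 19 called lower are blue; the called rises lie mostly to the right of the called falls, and SMED30032887 stands alone at the far right.

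The values behind the calls differed by direction. The 24 rises had a median scaled value of 757 over the 6 libraries and 12 of them averaged over 1000, whereas the 19 falls had a median of 94.2 and 2 averaged over 1000. Over all features tested the median was 71.1 and 8.97% averaged over 1000. These values are not divided by transcript length, so they show how much signal a call rests on and not which feature is more expressed. In bulk RNA from a tail, fewer cells that hold a transcript and less of it per cell cannot be told apart.

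Among the rises, 3 features with large values changed by more than 2.5-fold and kept their calls whichever of the 6 libraries was left out. SMED30009757 had scaled values of 8896, 7989 and 4841 in opa1 plus drp1 RNAi tails, against 1622, 2895 and 1943 in opa1 RNAi tails, with 7786, 6414 and 5818 in control tails. Every opa1 plus drp1 RNAi library was above every opa1 RNAi library, and the opa1 plus drp1 RNAi values spanned those of the controls. The log2 fold change was 1.75 ± 0.28 (SE, adjusted p = 0.00125, limma).

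SMED30028679 had 2018, 1886 and 1845 in opa1 plus drp1 RNAi tails, against 549, 701 and 554 in opa1 RNAi tails, with 3205, 2384 and 2691 in control tails. Its opa1 plus drp1 RNAi libraries were close together and lay between the other groups, overlapping neither. The log2 fold change over opa1 RNAi was 1.68 ± 0.21 (SE, adjusted p = 1.7e-05, limma), the smallest p among the rises. The difference from control tails was not called (log2 fold change -0.52, adjusted p = 0.614, limma). SMED30005461 averaged 13584 ± 2547 in opa1 plus drp1 RNAi tails and 5055 ± 564 in opa1 RNAi tails, beside 13400.3 ± 2396 in control tails (SD, n = 3 each). The opa1 plus drp1 RNAi range of 10649 to 15200.5 overlapped the control range of 10754 to 15423, and the log2 fold change over opa1 RNAi was 1.41 ± 0.20 (SE, adjusted p = 0.000154, limma).

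The next rises were more dependent on single libraries. SMED30008790 averaged 554 ± 109 in opa1 plus drp1 RNAi tails and 190.0 ± 29.1 in opa1 RNAi tails, beside 627 ± 94.9 in control tails (SD, n = 3 each), a log2 fold change of 1.53 ± 0.34 (SE, adjusted p = 0.0436, limma). Its call was kept in 0 of the 6 fits that left out a library, with adjusted p up to 0.234, while the direction stayed. SMED30021788 had 81.5, 75.1 and 127 in opa1 plus drp1 RNAi tails, against 16.5, 49.0 and 32.6 in opa1 RNAi tails, with 62.8, 68.8 and 54.8 in control tails. All 3 opa1 plus drp1 RNAi libraries were above every control library as well as every opa1 RNAi library, and the call (log2 fold change 1.59 ± 0.36, SE, adjusted p = 0.0436, limma) was kept in 2 of 6 such fits. The difference from control tails was not called (log2 fold change 0.56, adjusted p = 0.822, limma). SMED30003013 averaged 262 ± 22.2 in opa1 plus drp1 RNAi tails and 113 ± 27.5 in opa1 RNAi tails (SD, n = 3 each), a log2 fold change of 1.23 ± 0.23 (SE, adjusted p = 0.00816, limma), kept in 3 of 6.

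A further 5 named rises were close to 2-fold. SMED30009717 averaged 2983 ± 294 in opa1 plus drp1 RNAi and 1574 ± 338 in opa1 RNAi tails, and SMED30025741 averaged 2445 ± 136 in opa1 plus drp1 RNAi and 1303 ± 292 in opa1 RNAi tails (SD, n = 3 each). Their log2 fold changes were 0.94 ± 0.17 and 0.93 ± 0.17 (SE, adjusted p = 0.00427 and 0.00695, limma), and the calls were kept in 4 and 5 of the 6 fits without a library. SMED30002134 averaged 4442 ± 495 in opa1 plus drp1 RNAi and 2460.2 ± 606 in opa1 RNAi tails (SD, n = 3 each, adjusted p = 0.0329, limma). SMED30000867 and SMED30027427 had log2 fold changes of 0.93 ± 0.21 and 0.84 ± 0.15 (SE), with adjusted p = 0.0436 and 0.00427 (limma). The calls of SMED30002134, SMED30000867 and SMED30027427 were kept in 2, 1 and 4 of the 6 fits without a library, and SMED30000867 and SMED30002134 were not called with TMM factors. On the TPM table none of these 5 was called, with log2 fold changes of 0.37 to 0.48 against the median of -0.26 over all features there. Among the rises with the largest values, SMED30023355 averaged 5725 ± 362 in opa1 plus drp1 RNAi and 3430.2 ± 361 in opa1 RNAi tails, and SMED30011849 averaged 5561 ± 449 in opa1 plus drp1 RNAi and 3390.4 ± 465 in opa1 RNAi tails (SD, n = 3 each). Their adjusted p of 0.0458 and 0.0414 (limma) were near the threshold, and each call was kept in 1 of 6 fits without a library.

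The remaining 10 rises had log2 fold changes of 0.57 to 2.58. The largest of them rest on small values. SMED30012507 had 12.8, 20.8 and 9.96 in opa1 plus drp1 RNAi tails, against 6.79, 0 and 0.967 in opa1 RNAi tails, and SMED30035507 had 26.4, 43.0 and 45.0 in opa1 plus drp1 RNAi tails, against 2.90, 2.27 and 20.2 in opa1 RNAi tails. In both, 1 opa1 RNAi library was far above the other 2. SMED30016690 had the smallest change of all 24, with 1429, 1499 and 1409 in opa1 plus drp1 RNAi tails, against 1006, 983 and 925 in opa1 RNAi tails, and no overlap between the groups.

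**Figure D2:**
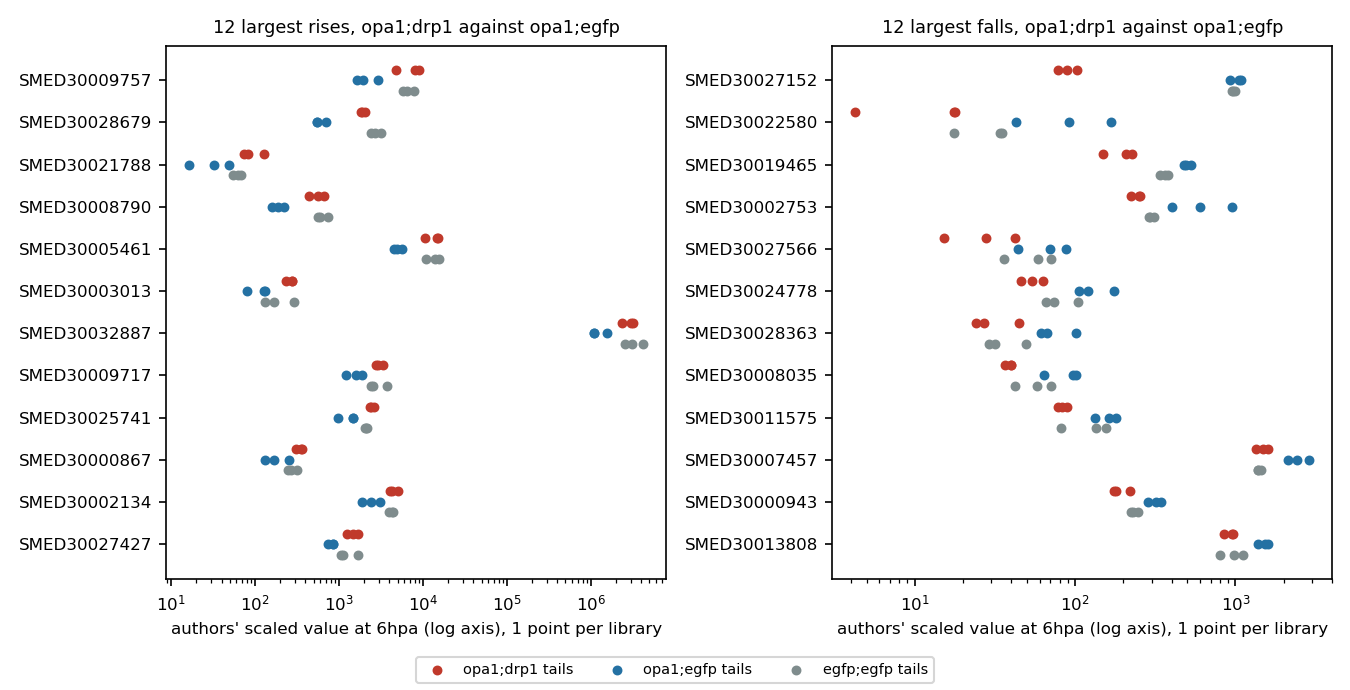
Scaled values (log axis) of the 12 largest rises and 12 largest falls at 6hpa, with 1 point per library: opa1;drp1 (red), opa1;egfp (blue) and egfp;egfp control (grey). The red and blue points of a feature never overlap, as the naming rule requires; for SMED30009757 and SMED30005461 the grey points lie with the red ones, while for SMED30027152 they lie with the blue ones.

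The fall of SMED30027152 was the most pronounced change of the comparison. It had 89.5, 77.7 and 103 in opa1 plus drp1 RNAi tails, against 1086, 922 and 1056 in opa1 RNAi tails, with 969, 958 and 988 in control tails. The opa1 RNAi and control libraries overlapped, and every opa1 plus drp1 RNAi library was far below all of them. The log2 fold change was -3.49 ± 0.23 (SE, adjusted p = 3.25e-13, limma), and it ranged from -3.60 to -3.39 over all alternatives and left-out libraries. In whole bodies, a separate experiment, it averaged 6.46 ± 0.458 CPM (counts scaled to a common library total) with drp1 RNAi alone at the time labelled homo, against 104 ± 9.32 with egfp RNAi (SD, n = 3 each), a log2 fold change of -4.02 (adjusted p = 6.6e-24, edgeR). At 1dpa the whole-body values were 8.57 ± 1.32 with drp1 and 127 ± 4.81 CPM with egfp RNAi (SD, n = 3 each, log2 fold change -3.88, adjusted p = 2.6e-24, edgeR). With opa1 RNAi in whole bodies its log2 fold changes were -0.00 and 0.13, and with sod2 RNAi 0.08 and -0.01, none of them called. Its mean was 90.2 to 129 in opa1 plus drp1 RNAi tails over the 4 times, against 1021 to 1236 in opa1 RNAi tails, so it was low in each group given drp1 dsRNA. Whether it is the transcript that the drp1 dsRNA targets, so that its fall is the knockdown itself, was not tested, since the sources used here do not pair the identifier with a gene.

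The other falls were smaller or rested on smaller values. SMED30022580 had 4.24, 17.6 and 17.7 in opa1 plus drp1 RNAi tails, against 167, 42.9 and 91.3 in opa1 RNAi tails, with 17.6, 35.0 and 34.0 in control tails. Its opa1 RNAi libraries differed almost 4-fold among themselves, and the highest stood far above all others. The log2 fold change was -2.85 ± 0.53 (SE, adjusted p = 0.00816, limma), and the call was lost without opa1 plus drp1 RNAi replicate 1 (adjusted p = 0.0635), without opa1 RNAi replicate 1 (0.0550) and without opa1 RNAi replicate 3 (0.135). SMED30019465 averaged 195 ± 41.3 in opa1 plus drp1 RNAi tails and 499.9 ± 24.1 in opa1 RNAi tails, beside 362 ± 20.2 in control tails (SD, n = 3 each), so that its opa1 plus drp1 RNAi libraries were below the controls too. Its log2 fold change over opa1 RNAi was -1.38 ± 0.28 (SE, adjusted p = 0.0179, limma), kept in 2 of 6 fits without a library. The difference from control tails was not called (log2 fold change -0.91, adjusted p = 0.364, limma).

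SMED30002753 had 250.2, 224 and 254 in opa1 plus drp1 RNAi tails, against 956, 399.9 and 599 in opa1 RNAi tails, with 308, 292 and 287 in control tails. The opa1 plus drp1 RNAi libraries were alike and just under the controls, while the opa1 RNAi libraries were spread widely (log2 fold change -1.33 ± 0.25, SE, adjusted p = 0.00816, limma, kept in 3 of 6). The difference from control tails was not called (log2 fold change -0.28, adjusted p = 0.874, limma). SMED30007457 averaged 1476 ± 127 in opa1 plus drp1 RNAi tails and 2477 ± 383 in opa1 RNAi tails, beside 1400.3 ± 36.1 in control tails (SD, n = 3 each). SMED30013808 averaged 922 ± 68.5 in opa1 plus drp1 RNAi tails and 1499 ± 105 in opa1 RNAi tails, beside 967 ± 156 in control tails (SD, n = 3 each). Their log2 fold changes were -0.74 ± 0.13 and -0.70 ± 0.12 (SE, adjusted p = 0.00404 and 0.00427, limma). Both calls were lost only without opa1 RNAi replicate 3, among the 6 libraries left out in turn, where adjusted p was 0.0501 for SMED30007457 and 0.135 for SMED30013808.

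SMED30024778 had 54.1, 46.1 and 63.1 in opa1 plus drp1 RNAi tails, against 175, 121 and 106 in opa1 RNAi tails, with 66.2, 104 and 73.8 in control tails. It fell by 1.26 on the log2 scale (SE 0.22; adjusted p = 0.00427, limma) and kept its call whichever of the 6 libraries was left out. SMED30034709, named for its large values, averaged 302 ± 45.5 in opa1 plus drp1 RNAi tails and 492 ± 96.4 in opa1 RNAi tails (SD, n = 3 each, adjusted p = 0.0437, limma) and kept its call in 0 of 6. The remaining 5 of the 12 largest falls, SMED30027566, SMED30028363, SMED30008035, SMED30011575 and SMED30000943, had log2 fold changes of -1.27 to -0.72 and kept their calls in 1 to 3 of those 6 fits. Outside these 12 there were 7 more falls, with log2 fold changes of -2.88 to -0.70. SMED30003712, at -2.88, was listed at 0, 0 and 2.18 in opa1 plus drp1 RNAi tails, against 9.76, 5.57 and 16.8 in opa1 RNAi tails, so its fold change is poorly fixed. SMED30016938 was steadier, with 11.5, 9.06 and 10.02 in opa1 plus drp1 RNAi tails, against 39.7, 41.9 and 45.6 in opa1 RNAi tails.

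SMED30032887 had the largest value in all 36 tail libraries. It took 22.9%, 22.9% and 18.8% of the summed values in the opa1 plus drp1 RNAi libraries at 6hpa, against 10.7%, 13.5% and 10.4% in the opa1 RNAi libraries. The means were 21.5% ± 2.36 in opa1 plus drp1 RNAi tails and 11.5% ± 1.73 in opa1 RNAi tails, beside 25.1% ± 4.002 in control tails (SD, n = 3 each). The opa1 plus drp1 RNAi libraries overlapped the controls, at 21.2% to 29.2%, and not the opa1 RNAi libraries, and the difference from opa1 RNAi tails of 9.97 percentage points had p = 0.1 in an exact two-sided permutation test, the smallest that 3 against 3 libraries allow. In the fit across features its log2 fold change was 1.19 ± 0.27 (SE, adjusted p = 0.0436, limma), a call kept in 1 of 6 fits without a library. This feature was not analysed in the TPM table or in whole bodies. Rescaling the libraries without it gave the split of 20 higher and 107 lower calls. Its part in the single results was not tested.

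A pair of features that earlier results of these data had singled out did not pass the test for adding drp1 at 6hpa. SMED30010319 had 67.7, 35.7 and 75.6 in opa1 plus drp1 RNAi tails, against 87.6, 73.7 and 114 in opa1 RNAi tails, with 221, 276 and 248 in control tails. Both RNAi groups were far below the controls and overlapped each other, with a log2 fold change of -0.66 ± 0.28 (SE, adjusted p = 0.316, limma). SMED30014993 had 83.4, 94.1 and 54.7 in opa1 plus drp1 RNAi tails, against 78.9, 120.1 and 103 in opa1 RNAi tails, with 36.2, 15.6 and 15.6 in control tails. Both RNAi groups were above every control library, and the difference between them was -0.39 ± 0.37 on the log2 scale (SE, adjusted p = 0.69, limma). These standard errors leave room for a change in either feature, and a missed threshold does not show that the groups were alike.

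The same contrast at the other times gave 266 calls at 0dpa (82 higher and 184 lower, 1.29% of features), 62 at 1dpa (17 and 45, 0.300%) and 848 at 2dpa (464 and 384, 4.10%). These counts do not rank the effect by time, since the spread of the libraries differed. Group weights for opa1 plus drp1 RNAi and opa1 RNAi tails were 0.684 and 0.538 at 6hpa, and 1.62 and 1.53 at 2dpa. A feature called at 6hpa alone is therefore not shown to change only then. Of the 24 rises at 6hpa, 3 were also called higher at 0dpa, 3 at 1dpa and 4 at 2dpa, and 0 were called lower. Of the 19 falls, 4 were also called lower at 0dpa, 6 at 1dpa and 6 at 2dpa, and 1 was called higher, at 2dpa. Called in 1 direction at all 4 times were 2 rises, SMED30028679 and SMED30005461, and 4 falls, SMED30027152, SMED30019465, SMED30002753 and SMED30007457. SMED30028679 had log2 fold changes of 0.71, 1.68, 0.85 and 0.47 in time order, and SMED30005461 had 0.62, 1.41, 0.82 and 0.58. SMED30027152 stayed between -3.57 and -3.26, and SMED30002753 had -1.14, -1.33, -0.96 and -1.06. SMED30032887 was called at 6hpa, 1dpa and 2dpa, with log2 fold changes of 1.19, 1.02 and 0.74.

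**Figure D3:**
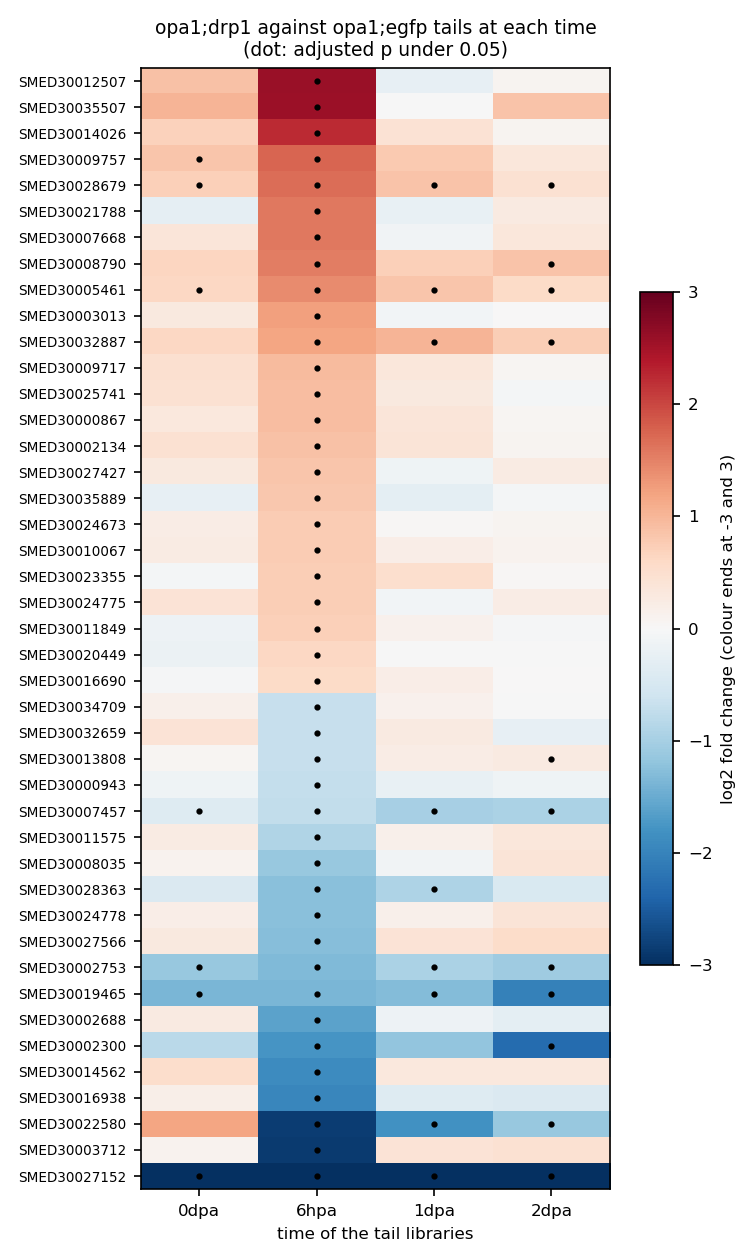
Log2 fold changes, opa1;drp1 over opa1;egfp, of the 43 features called at 6hpa (rows, in order of that change) at the 4 times (columns); red is higher and blue is lower in opa1;drp1 tails, the colour ends at -3 and 3, and a dot marks an adjusted p under 0.05. Rows with dots at all 4 times are SMED30028679, SMED30005461, SMED30007457, SMED30002753, SMED30019465 and SMED30027152. Most other rows are marked at 6hpa alone, and a missing dot does not show that there was no change.

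Whether the effect of adding drp1 differed between times was tested as an interaction. The effect at 6hpa minus that at 0dpa was called for 433 features (2.09%), of which 262 were higher (1.27%) and 171 lower (0.827%). Minus that at 1dpa it was called for 5 (0.0242%), 2 higher (0.00967%) and 3 lower (0.0145%), and minus that at 2dpa for 329 (1.59%), 127 higher (0.614%) and 202 lower (0.977%). These counts do not show which time was most like 6hpa, since the spread of the libraries differed. Group weights of opa1 RNAi tails were 0.886 at 0dpa, 0.741 at 1dpa and 1.53 at 2dpa. With 1 weight per library the counts were 949, 264 and 719 in the same order. The splits moved with scaling. Against 0dpa they were 203 higher and 375 lower without the largest feature and 44 and 972 on TPM. Against 1dpa they were 2 and 5 with TMM factors, 0 and 11 without the largest feature and 0 and 52 on TPM. Against 2dpa they were 184 and 145, 68 and 632, and 19 and 1951 under the same 3 alternatives. Single libraries at 6hpa decided the counts too. Against 0dpa there were 3 calls without opa1 plus drp1 RNAi replicate 2, 79 without opa1 plus drp1 RNAi replicate 3, 1 without opa1 RNAi replicate 1, 992 without opa1 RNAi replicate 2 and 0 without opa1 RNAi replicate 3, where limma still gave 3144 features at an unadjusted p under 0.05. Against 1dpa there were 3 without opa1 plus drp1 RNAi replicate 3, 13 without opa1 RNAi replicate 1 and 1 without opa1 RNAi replicate 3. Against 2dpa the counts were 209, 155 and 121 without opa1 plus drp1 RNAi replicates 1, 2 and 3, and 120 and 40 without opa1 RNAi replicates 1 and 3.

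SMED30022580 was among the features with the smallest interaction p against 0dpa. It averaged 4.49 ± 3.15 in opa1 plus drp1 RNAi and 1.45 ± 1.27 in opa1 RNAi tails at 0dpa, and 13.2 ± 7.75 in opa1 plus drp1 RNAi and 100.3 ± 62.4 in opa1 RNAi tails at 6hpa (SD, n = 3 each). At 1dpa it averaged 193 ± 29.7 in opa1 plus drp1 RNAi tails and 677 ± 39.1 in opa1 RNAi tails, beside 219 ± 36.9 in control tails (SD, n = 3 each). The values therefore climbed after amputation in all 3 groups and most in opa1 RNAi tails, and the 6hpa effect was 4.03 lower on the log2 scale than the 0dpa effect (SE 0.67; adjusted p = 0.00706, limma). It was also called lower at 1dpa (log2 fold change -1.81, adjusted p = 0.0418, limma) and at 2dpa (-1.13, adjusted p = 0.0411, limma), and its 6hpa effect was not called different from those (adjusted p = 0.714 and 0.145, limma). The call against 0dpa was lost without opa1 RNAi replicate 1 (adjusted p = 0.0584) and without opa1 RNAi replicate 3 (adjusted p = 0.0732).

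For SMED30013808 the log2 fold change was below 0 at 6hpa and 0.05, 0.21 and 0.27 at 0dpa, 1dpa and 2dpa. At 1dpa it averaged 1977 ± 134 in opa1 plus drp1 RNAi and 1702 ± 52.2 in opa1 RNAi tails (SD, n = 3 each), and the 6hpa effect was lower than the 1dpa effect by 0.91 (SE 0.16; adjusted p = 0.0243, limma) and lower than the 2dpa effect by 0.97 (SE 0.14; adjusted p = 0.00162, limma). SMED30012212 was called at the 3 other times and not at 6hpa. At 6hpa it had 3119.8, 3422 and 2584 in opa1 plus drp1 RNAi tails, against 2977, 2834 and 2380.3 in opa1 RNAi tails, with 8831, 5253 and 7975 in control tails, so both RNAi groups overlapped and lay below the controls. At 1dpa it averaged 7286 ± 605 in opa1 plus drp1 RNAi tails and 2763 ± 275 in opa1 RNAi tails, beside 11464 ± 942 in control tails (SD, n = 3 each). Its log2 fold change was 0.15 ± 0.18 at 6hpa and 1.40 ± 0.14 at 1dpa (SE), a difference of -1.25 ± 0.23 (SE, adjusted p = 0.0243, limma). That call was lost without opa1 plus drp1 RNAi replicate 3 (adjusted p = 0.136), opa1 RNAi replicate 2 (0.0523) or opa1 RNAi replicate 3 (0.0900), and that of SMED30013808 against 1dpa without opa1 RNAi replicate 3 (0.113).

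**Figure D4:**
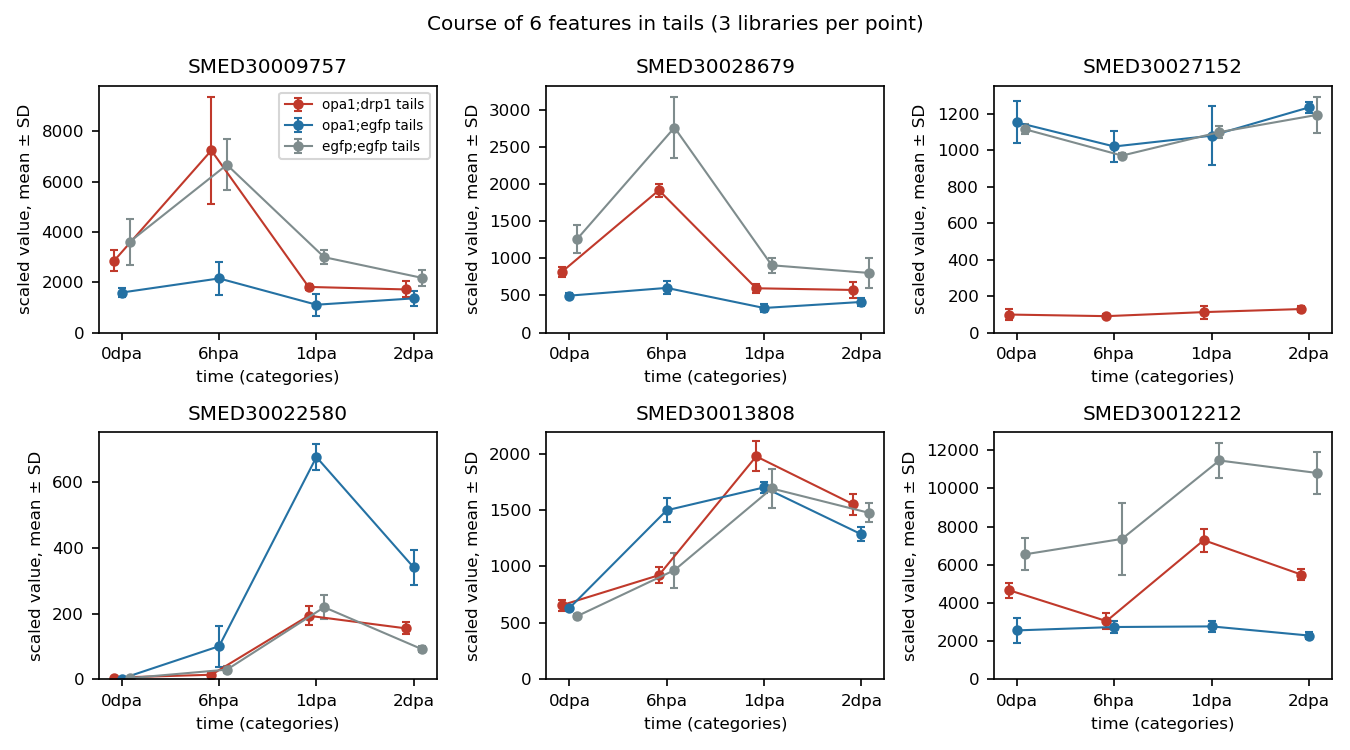
Mean scaled values with SD (3 libraries per point) of 6 features at the 4 times, drawn as equally spaced categories, in opa1;drp1 (red), opa1;egfp (blue) and egfp;egfp control tails (grey). SMED30009757 and SMED30028679 are highest at 6hpa in all 3 groups, SMED30027152 is low in opa1;drp1 tails at each time, and SMED30012212 meets the opa1;egfp values at 6hpa alone.

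Features that opa1 RNAi lowered at other times mostly had log2 fold changes above 0 for adding drp1 at 6hpa, and those it raised mostly below 0. Opa1 RNAi against control tails, averaged over 0dpa, 1dpa and 2dpa, shares no library with the 6hpa comparison, and 92 features were called lower and over 2-fold in it (0.445%) and 29 higher (0.140%). The 92 lowered features had a median log2 fold change of 0.65 for adding drp1 at 6hpa, with 73 above 0, and 5 were called higher and 0 lower. Over all features tested the median was 0.06, 55.7% were above 0, 0.116% were called higher and 0.0919% lower. The median was above 0 in 9 of 9 pairs of 1 opa1 plus drp1 RNAi and 1 opa1 RNAi library. The 29 raised features had a median of -0.47 with 6 above 0, of which 0 were called higher and 3 lower, and 0 of 9 pairs were above 0. Most of the 92 had small values: 72 had a mean log2 value under 5, and their median was 0.59, while the 13 with a mean over 8 had a median of 1.19. With a pseudocount of 5 the median of the 92 was 0.33, and on TPM it was 0.10, against -0.26 over all features there. Seen from the other side, of the 24 rises at 6hpa 10 were called lower with opa1 RNAi at the other times and 1 was above 0, with a median of -0.26. Of the 19 falls 5 were called higher and 1 lower, and 12 were above 0, with a median of 0.14. Over all 20681 features, 498 were called higher and 535 lower, and 9004 were above 0, with a median of -0.03.

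Features that rose after amputation in control tails mostly had log2 fold changes above 0 for adding drp1 at 6hpa. In control tails, 6hpa against 0dpa, 1932 features were called higher and over 2-fold (9.34%) and 1607 lower (7.77%), from libraries that the 6hpa comparison does not use. The 1932 had a median log2 fold change of 0.35 in opa1 plus drp1 RNAi over opa1 RNAi tails at 6hpa, with 90.1% above 0, and 5 were called higher and 1 lower. Of all features tested, 55.7% were above 0, 0.116% were called higher and 0.0919% lower. By library, each opa1 plus drp1 RNAi library against the opa1 RNAi mean gave medians of 0.20, 0.52 and 0.34, and 8 of 9 library pairs were above 0, over a range of -0.08 to 0.85. Among features with a mean log2 value over 8, 95.0% of the 1160 members were above 0, against 65.4% of all features at that value. There 5 of the 1160 members were called in either direction, beside 22 of all 5956 features, so these calls do not set the members apart. The median for adding drp1 was -0.40 at 0dpa, 0.16 at 1dpa and -0.09 at 2dpa for the same 1932 features. The 6hpa effect minus the 0dpa effect had a median of 0.76, against 0.02 over all features, with 175 members called higher and 1 lower, where 262 features (1.27%) were called higher in all. These interaction calls rest on single libraries, since without opa1 plus drp1 RNAi replicate 2, opa1 RNAi replicate 1 or opa1 RNAi replicate 3 only 3, 1 and 0 features of the whole table were called. The median was 0.59 to 0.90 without any 1 of the 6 libraries and 0.33 on TPM.

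The 1607 features that fell after amputation in control tails had a median of -0.17 for adding drp1 at 6hpa, with 37.6% above 0. Of these 1607, 0 were called higher and 4 lower, beside 0.116% and 0.0919% of all features tested. Their 6hpa effect minus the 0dpa effect had a median of -0.38, with 1 called higher and 33 lower, where 171 features (0.827%) were called lower in all. These calls rest on the same 3 libraries and also on opa1 plus drp1 RNAi replicate 3. Without that replicate 79 features of the whole table were called, 49 of them lower. Single libraries moved these medians. Without opa1 RNAi replicate 1 the median of the 1932 was 0.18 and that of the 1607 was -0.05, and without opa1 RNAi replicate 2 that of the 1607 was -0.29. On TPM the median of the 1932 was -0.09 and thus below 0, yet above the -0.26 of all features there; that of the 1607 was -0.35.

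**Figure D5:**
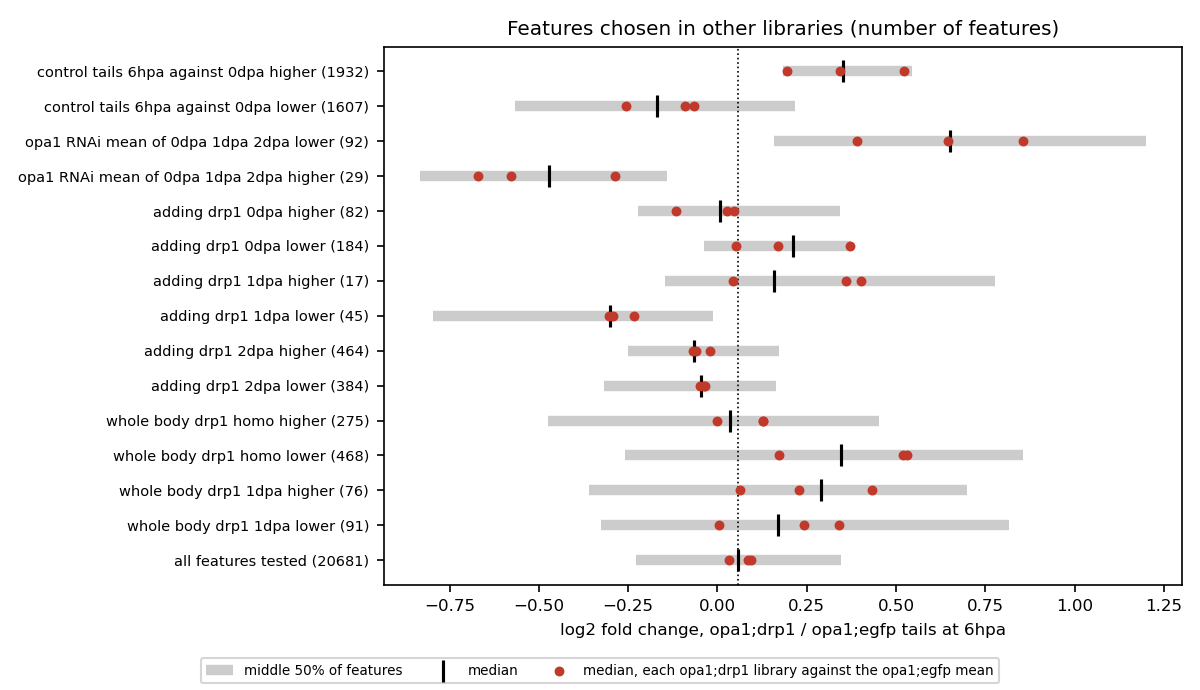
Log2 fold changes, opa1;drp1 over opa1;egfp tails at 6hpa, of features called on differences between libraries other than those 6 (number of features in brackets). Grey bars span the middle 50% of features, black ticks are medians, red points are the median of each opa1;drp1 library against the opa1;egfp mean, and the dotted line is the median of all features tested, 0.06. The features higher at 6hpa in control tails and those lowered by opa1 RNAi lie to the right of the line, with medians of 0.35 and 0.65, and those raised by opa1 RNAi to its left, at -0.47.

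Features called for adding drp1 at another time had medians of -0.30 to 0.21 at 6hpa. Of all features tested, 0.116% were called higher and 0.0919% lower at 6hpa. The 45 lowered at 1dpa (0.218%) had a median of -0.30 at 6hpa, with 0 called higher and 6 lower and 0 of 9 library pairs above 0. The 17 raised at 1dpa (0.0822%) had a median of 0.16, with 3 called higher, and the median was 0.46 without opa1 plus drp1 RNAi replicate 3 and 0.41 without opa1 RNAi replicate 1. The 184 lowered at 0dpa (0.890%) had a median of 0.21 at 6hpa, above that of all features, though 4 of them were called lower and 0 higher. It was 0.08 without opa1 RNAi replicate 1, against 0.04 over all features, and -0.23 on TPM, against -0.26. The 82 raised at 0dpa (0.396%) had a median of 0.01, with 3 called higher, and -0.07 to 0.07 without any 1 of the 6 libraries. At 2dpa, the 464 raised (2.24%) and 384 lowered features (1.86%) had medians of -0.07 and -0.05, and 4 of the raised and 6 of the lowered were called in their own direction at 6hpa.

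In whole bodies, drp1 RNAi alone against egfp RNAi at homo gave 300 features higher over 2-fold (1.31%) and 623 lower (2.72%) in edgeR. The 275 of the higher ones that were measured in tails had a median of 0.03 for adding drp1 at 6hpa, with 0 called higher and 5 lower, and the 468 of the lower ones had a median of 0.34, with 0 called higher and 1 lower. Without opa1 RNAi replicate 1 these medians were 0.22 and 0.16, without opa1 RNAi replicate 2 that of the higher ones was -0.08, and on TPM they were -0.30 and -0.02. The lower ones had small values, with a median log2 value of 3.36 in opa1 RNAi tails against 6.13 over all features. With a pseudocount of 5 their median fold change was 0.23 on the log2 scale. At 1dpa the 76 measured of 84 higher features (0.367%, and 1.01% called in either direction) had a median of 0.29 with 0 called higher and 5 lower, and the 91 measured of 147 lower features (0.642%) had a median of 0.17 with 1 called each way. The first median was 0.15 without opa1 RNAi replicate 2, 0.48 without opa1 RNAi replicate 1 and -0.07 on TPM, and the second was -0.04 without opa1 plus drp1 RNAi replicate 3 and -0.14 on TPM. With a pseudocount of 5 they were 0.15 and 0.16. For opa1 RNAi in whole bodies at homo, where 6.93% of features were called over 2-fold, the 239 measured of the 256 higher features (1.12%) had a median of -0.05 with 0 called higher and 5 lower, and the 996 measured of the 1330 lower ones (5.81%) had a median of 0.36 with 1 called higher and 0 lower. Without opa1 RNAi replicate 1 these medians were 0.02 and 0.19, and on TPM -0.41 and -0.01, beside -0.26 over all features on TPM. The lower ones again had small values, with a median log2 value of 3.31 in opa1 RNAi tails. With a pseudocount of 5 their median fold change was 0.24 on the log2 scale. At 1dpa, 1.15% of whole-body features were called over 2-fold with opa1 RNAi, 0.782% lower and 0.367% higher. The 164 measured features of the lower set had a median of 0.07 in tails at 6hpa, with 5 called higher and 0 lower. The 66 measured features of the higher set had a median of -0.08, with 0 called higher and 4 lower. The lower set's median was 0.20 without opa1 RNAi replicate 1, and the higher set's was 0.02 without opa1 RNAi replicate 2. Over all features tested in tails the median was 0.06, with 0.116% called higher and 0.0919% lower. With sod2 RNAi in bodies, 0.559% of features were called at homo (0.109% higher and 0.450% lower) and at 1dpa 0.0218% higher and 0.0786% lower. Of these 4 sets, 1 feature in all was called in tails at 6hpa. The 92 measured features lower with sod2 RNAi at homo had a median of 0.28, with 8 of 9 library pairs above 0. That median was 0.15 without opa1 RNAi replicate 1 and -0.10 on TPM. The 21 measured higher ones had a median of 0.20. At 1dpa the 5 higher and 18 lower features measured had medians of -0.68 and -0.09.

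SMED30007457, lower in opa1 plus drp1 RNAi than in opa1 RNAi tails, was higher with drp1 RNAi alone in whole bodies, at 349.9 ± 31.6 CPM with drp1 and 171 ± 6.07 CPM with egfp RNAi at homo (SD, n = 3 each, log2 fold change 1.03, adjusted p = 2.8e-10, edgeR). It was higher still with opa1 RNAi there, at 542 ± 76.3 CPM (SD, n = 3, log2 fold change 1.66, adjusted p = 2.4e-15, edgeR). SMED30002753 likewise averaged 158 ± 13.1 CPM with drp1, 401 ± 87.3 CPM with opa1 and 42.4 ± 6.99 CPM with egfp RNAi at homo (SD, n = 3 each). SMED30009757, which was higher in opa1 plus drp1 RNAi tails, was higher with drp1 RNAi in bodies at homo (log2 fold change 0.86, adjusted p = 0.00079, edgeR) and lower at 1dpa (-1.30, adjusted p = 1.3e-05, edgeR). SMED30028679 likewise was higher at homo (0.45, adjusted p = 0.019, edgeR) and lower at 1dpa (-0.95, adjusted p = 2.3e-05, edgeR). SMED30005461 was lower at both times, by -0.42 and -0.63 (adjusted p = 0.039 and 0.0069, edgeR), opposite to its direction in tails. SMED30019465 was lower with drp1 RNAi in bodies at both times, by -0.76 and -0.75 (adjusted p = 2.9e-05 and 0.00014, edgeR), the direction it had in tails.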

How the data were processed

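Per the labels' protocols, 400 ng of total RNA went into each library. The tail table holds a signal, scaled by the authors by a method not given in the sources used here. Its values are not whole, and whole reads could not be recovered from them. The whole-body table holds expected counts that the authors deposited, from kallisto by the table's name. They were rounded to whole numbers and are given as CPM. The authors' deposited TPM tables served as an alternative. The tail TPM table holds 27444 features of the 36035 in the tail signal table. The aligner index and genome build are not given in the sources used here.

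Tails were tested with limma 3.58.1 (R 4.3.3) on log2(value + 1), for 20681 features that reached 10 in 3 or more of 36 libraries, with 12 group means, 24 residual degrees of freedom, a mean-dependent prior and 1 weight per group, since 6hpa replicates vary more. Fold changes are on the log2(value + 1) scale, which understates changes of small values. Whole bodies were tested with edgeR 4.0.16 (quasi-likelihood, TMM) on 22889 features in 8 groups. P-values were adjusted by Benjamini-Hochberg within each comparison. The fits were also run on simulated data, which held no single deviating library and no difference in scaling. That run therefore cannot show how far the counts depend on either. Sets of features came from differences between groups with no library of the 6 compared and are described by counts and medians, with no test. The spread behind the tail calls came from all 36 tail libraries, the 6 included. Features with a small spread are thus called more easily in several tail comparisons. Counts of tail set members called at 6hpa are therefore not independent support.

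Named features were, among those called at 6hpa without overlap and with a mean log2 value of at least 5, the 12 largest rises and falls, and also the 4 called features with the largest values in each direction, up to 4 per interaction, those called at all 4 times, and 4 known from earlier results. Others were chosen after their values were seen. The comparison, the features and the sets were chosen with earlier results of these data known. Planned gene lists needed gene names and were not used.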

Additional observations from a re-analysis of the deposited data

Results flagged for a closer look

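For 9 features the effect of adding drp1 at 6hpa differed from that at another time by a test of the difference itself (limma interaction, Benjamini-Hochberg, log2 scale, 6hpa effect minus the other). They are the 4 with the smallest p for each time. Against 0dpa, SMED30032659 differed by -1.11 ± 0.18 (SE, adjusted p = 0.00664), SMED30022580 by -4.03 ± 0.67 (adjusted p = 0.00706), SMED30025245 by -1.76 ± 0.32 and SMED30024778 by -1.47 ± 0.28 (adjusted p = 0.0208 for both). Against 1dpa, SMED30013808 differed by -0.91 ± 0.16, SMED30012212 by -1.25 ± 0.23, SMED30032659 by -0.96 ± 0.18 and SMED30026807 by 0.98 ± 0.18, each with adjusted p = 0.0243. Against 2dpa, SMED30013808 differed by -0.97 ± 0.14, SMED30024778 by -1.65 ± 0.26, SMED30004304 by -2.05 ± 0.32 (adjusted p = 0.00162 for these 3) and SMED30026445 by -1.71 ± 0.29 (adjusted p = 0.00354).

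SMED30004304 had 66.7, 48.1 and 47.9 in opa1 plus drp1 RNAi tails at 6hpa, against 164, 61.8 and 153 in opa1 RNAi tails. It was not called at 6hpa (adjusted p = 0.0677), where 1 opa1 RNAi library was far below the other 2. SMED30025245 had 30.8, 20.6 and 25.6 in opa1 plus drp1 RNAi tails at 6hpa, against 71.3, 42.8 and 50.5 in opa1 RNAi tails (adjusted p = 0.0571). SMED30026807 averaged 1047 ± 117 in opa1 plus drp1 RNAi and 802 ± 34.4 in opa1 RNAi tails at 6hpa (SD, n = 3 each). All 4 interactions against 1dpa lost their calls without opa1 RNAi replicate 3, with adjusted p of 0.090 to 0.113, as did all 4 against 0dpa, with adjusted p = 0.0732 each.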

How the results depend on the processing

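The direction of all 43 called features stayed under the 12 alternatives and 6 left-out libraries that could be run, and SMED30005461, SMED30009757, SMED30027152 and SMED30028679 kept their calls in each of those that measured them. The main 43 calls became 984 with equal weights for all libraries, 237 with 1 weight per library, 48 in a fit of the 9 libraries at 6hpa (16 of the 43 kept), 73 in a fit of the 6 libraries compared (18 kept), 79 with a pseudocount of 5, 106 with no filter, 100 with a filter of 50, 127 rescaled without the largest feature and 3036 on TPM, and 9 to 53 without 1 library. The effect at 6hpa minus 0dpa (433 calls) gave 1541 with equal weights, 949 with 1 weight per library, 720 with a pseudocount of 5, 871 with a filter of 50, 1016 on TPM and 0 to 992 without 1 library. Minus 1dpa (5) gave 55 with equal weights, 264 with 1 weight per library, 10 with a pseudocount of 5, 11 without the largest feature, 52 on TPM and 1 to 13 without 1 library. Minus 2dpa (329) gave 719 with 1 weight per library, 200 with no filter, 546 with a filter of 50, 700 without the largest feature, 1970 on TPM and 40 to 472 without 1 library. Of the 43 calls, 22, 23 and 11 were kept without opa1 plus drp1 RNAi replicates 1, 2 and 3, and 21, 22 and 9 without opa1 RNAi replicates 1, 2 and 3. The cause of these shifts was not tested.

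The labels do not say whether replicate numbers pair the samples. Residuals of same-numbered opa1 plus drp1 RNAi and opa1 RNAi libraries at 6hpa correlated at 0.0519, 0.0411 and -0.00049. With 3 libraries per group these values cannot decide it. With the replicate number as a block the counts were 156 at 6hpa and 916, 6 and 624 for the interactions with 0dpa, 1dpa and 2dpa. At 6hpa 3426 features then had an unadjusted p under 0.05 in limma, against 2682 in the main fit. A count model on whole reads was not run, since none could be recovered, nor was the share of the largest feature on TPM. Unknown depth limits what small values can show.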
